A study of Canis lupus familiaris with 2 samples.

Results

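The genes CBR4, AKR1B1, NQO1 and LOC477558, described as enzymes that act on carbonyls, quinones and electrophiles, had rows in the deposited comparison of the doxorubicin-resistant canine lymphoma line CLBL-1 8.0 with its parental line CLBL-1. They were taken by name, as enzymes able to reduce carbonyls or quinones, plus a gene described in the table as glutathione S-transferase theta-1-like. They are 4 of 1729 rows, and the table also holds other enzymes of these families, given further on. CLBL-1 8.0 is the doxorubicin-resistant form, kept in medium with 8 µM doxorubicin, and CLBL-1 is the parental line without chemoresistance; both are canine diffuse large B-cell lymphoma cells labelled as lymph node, tumor stage IV, and both were grown with 10% fetal bovine serum. The labels do not say whether the drug was still present when RNA was taken, so exposure to it and the resistant state cannot be told apart. They do not say either whether CLBL-1 8.0 is 1 clone.

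Doxorubicin is an anthracycline with a ketone in its side chain and a quinone in its ring system. Carbonyl reductases and aldo-keto reductases turn the ketone into an alcohol, which gives a secondary metabolite of lower antitumour potency. Quinone reductases act on the ring: single-electron reduction gives a semiquinone radical that passes its electron to oxygen, while NQO1 reduces quinones fully to hydroquinones. Glutathione transferases couple glutathione to reactive electrophiles, among them products of lipid oxidation.

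Each line was represented by 1 sample, so the spread between replicates is unknown and no statistical test was made. The table holds genes that the authors selected, and every row above 0 in both lines differed at least 1.59-fold, so that a member differs is fixed by its being listed. Values are normalised abundances of unstated unit, which may be FPKM or TPM, and the depth behind them is unknown. Of 9 B cell markers, only CD37 had a row, and the others were not analysed here, so the labelled cell type could not be checked in this table. Of the markers of other cell types, 3 of 8 for T and NK cells, 1 of 6 for myeloid cells and 1 of 6 for stromal, endothelial and epithelial cells had a row. CD37 was at 26.6 in CLBL-1 8.0 against 50.4 in CLBL-1. The T and NK cell markers went both ways, with TRAT1 at 20.6 in CLBL-1 8.0 against 2.72 in CLBL-1, GZMA at 47.1 against 23.5 and PRF1 at 1.07 against 6.67. The myeloid FCER1G was at 14.0 against 7.74 and the epithelial EPCAM at 2.07 against 5.26, and their part in the results below was not tested. In bulk RNA, fewer cells with a transcript and less of it per cell cannot be told apart.

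The members split evenly, with CBR4 and AKR1B1 higher and NQO1 and the glutathione transferase gene lower in CLBL-1 8.0. CBR4 also reduces quinones, so this is not a split of carbonyl from quinone reductases. Over all 1729 rows, 65.2% were higher and 34.8% were lower in CLBL-1 8.0. On the log2(value + 1) scale used below, all 4 members differed at least 2-fold, as did 38.5% of all rows, 24.1% upwards (416 rows) and 14.4% downwards (249 rows). This split depends on scaling: 2-fold rows numbered 216 upwards and 533 downwards after equalising the upper quartiles of the lines, and 91 and 602 after centring on the median. Over the 1729 rows the log2 difference had a median of 0.73, towards CLBL-1 8.0.

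**Figure D1:**
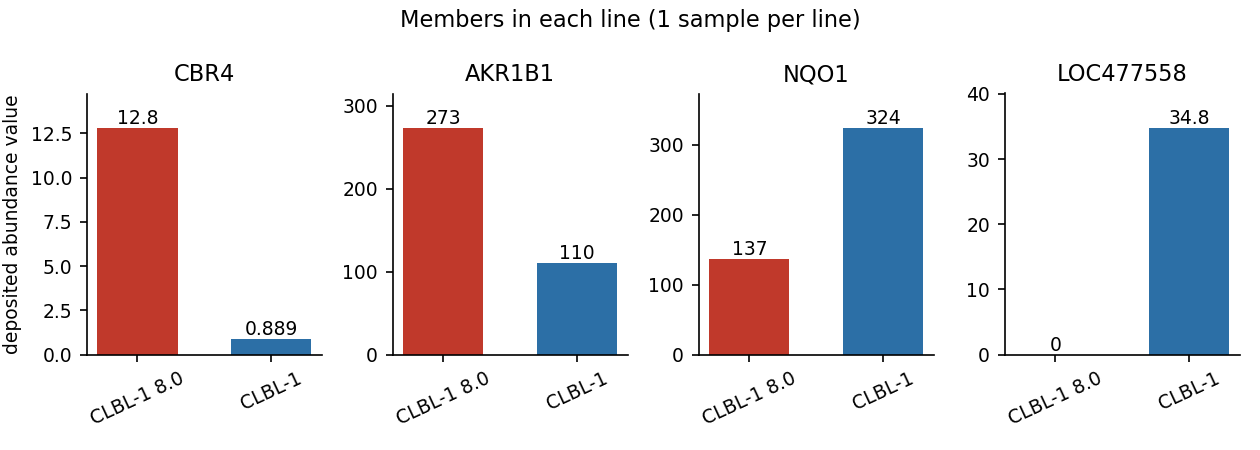
Deposited abundance value (vertical axis, unit not stated, a separate scale for each gene) of CBR4, AKR1B1, NQO1 and LOC477558 in CLBL-1 8.0 (red) and CLBL-1 (blue), 1 sample per bar. CBR4 and AKR1B1 are higher in CLBL-1 8.0, NQO1 is lower, and LOC477558 is listed at 0 there.

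CBR4 had a larger increase than AKR1B1. It encodes a short-chain dehydrogenase of mitochondria that, in humans, forms the ketoacyl reductase of mitochondrial fatty acid synthesis together with HSD17B8, and that also reduces quinones. Its abundance value was 12.8 in CLBL-1 8.0, against 0.889 in CLBL-1. The resistant line was therefore 14.4-fold higher as deposited, but the low parental value makes the size depend on the scale. The log2 fold is 3.85 in the authors' deposited table, 2.87 with 1 added to each value and 1.60 with 5 added. By the log2 difference of 2.87, 27 of the 1729 rows had a larger increase than CBR4.

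CBR4 (gene ID 477352) lies on the minus strand of chromosome 25 from 19475562 to 19618144 (positions from the table; the submitters' processing notes name the build CanFam3.1). In a reference table of dog genes from another assembly, UU_Cfam_GSD_1.0, CBR4 overlaps PALLD, an actin-associated gene with no row here. Whether the counting used strand is not stated, so reads of CBR4 and of PALLD may not have been separable. The nearest listed row before it was PARP4, a poly(ADP-ribose) polymerase, at 20.6 in CLBL-1 8.0 against 8.96 in CLBL-1, and the nearest after it was SH3RF1, a ubiquitin ligase scaffold, at 9.35 against 5.79. Of the 10 nearest listed rows, 5 on each side, 8 were also higher in CLBL-1 8.0. These rows are not all close by: they lie from 408 kb (SH3RF1) to 9588 kb (ZNF395) away. With 10 on each side 65% were higher, against 65.2% of all rows, and the median over the nearer 10 was 0.81, against 0.73 for all rows. Their highest value was 2.21, for the death receptor family gene TNFRSF19, below the 2.87 of CBR4.

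AKR1B1 encodes aldose reductase, which converts glucose to sorbitol in the polyol pathway and also reduces aldehydes from lipid oxidation. Its abundance value was 273 in CLBL-1 8.0, against 110.0 in CLBL-1. The fold was 2.49 and the log2 difference was 1.31, or 1.28 with 5 added to each value. After upper-quartile scaling, which multiplies the CLBL-1 values by 1.25, it was 0.99, just under 2-fold. Larger increases were seen in 209 of the 1729 rows.

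A pseudogene copy may affect this value. LOC482334, described in the table as an aldose reductase pseudogene, was at 44.0 in CLBL-1 8.0 and 20.8 in CLBL-1, a 2.11-fold difference in the same direction as the 2.49-fold difference of AKR1B1. It lies on the same chromosome, 14, from 31644148 to 31645488, was named after its values were seen, and may share reads with AKR1B1, which no value here measures.

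AKR1B1 (gene ID 607537) lies on the plus strand of chromosome 14 from 2991888 to 3006941. Of the 46 listed rows of this chromosome, 43 were higher in CLBL-1 8.0, and their median log2 difference was 1.35, close to the 1.31 of AKR1B1. Of the 7 nearest listed rows, 94.8 kb to 3906 kb away, 5 were higher, against 65.2% of all rows, with a median of 1.39. The closest was the uncharacterised LOC106559703, at 11.5 in CLBL-1 8.0 against 2.60 in CLBL-1, and the closest with a symbol was CHCHD3, a mitochondrial inner membrane organiser, at 363 against 216. Farther along chromosome 14, a stretch of strongly higher rows begins with DMTF1, at 159 in CLBL-1 8.0 against 12.9 in CLBL-1. It starts 10.3 Mb beyond AKR1B1, and the 17 listed rows between them had a lower median of 0.76, 15 of them higher. The drug efflux gene ABCB1 had no row.

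NQO1 reduces quinones fully to hydroquinones with NADH or NADPH, and is a textbook target of the oxidant-responsive transcription factor NRF2. Its abundance value was 137 in CLBL-1 8.0, against 324 in CLBL-1. The value in CLBL-1 was 2.37-fold that in CLBL-1 8.0, a log2 difference of -1.24, and larger decreases were seen in 157 of the 1729 rows. Constants of 0.1 and 5 gave -1.24 and -1.22, so the low-value treatment hardly touched it. Relative to the median of all rows, 0.73, the difference of NQO1 was -1.97 on the log2 scale, and that of AKR1B1 was 0.57. That median depends on the selection of rows, so these are not differences corrected for a shift between the lines.

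NQO1 (gene ID 610935) lies on the plus strand of chromosome 5 from 79979593 to 79990875. Chromosome 5 had more lower than higher rows, 97 of 153, and a median log2 difference of -0.77. Around NQO1, however, only 3 of the 7 nearest listed rows were lower in CLBL-1 8.0, and 4 were higher, against 65.2% of all rows. ZFHX3, a zinc finger homeobox gene, was at 6.90 in CLBL-1 8.0 against 3.71 in CLBL-1 on one side, and FBXL8, an F-box gene, was at 5.01 against 2.30 on the other. They lie 1344 kb and 2211 kb away, and none of the 6 nearest protein-coding genes in the reference table, such as NOB1 and NFAT5, had a row. Of the authors' deposited ontology and KEGG terms, 118 and 50 in number, only the ontology term extracellular exosome held a member, NQO1. In the authors' deposited table this broad term has 205 genes and a p-value of 0.0239; 123 of the 206 rows that carry its gene IDs (a gene can have more than 1 row), 59.7%, were higher in CLBL-1 8.0, against 65.2% of all rows.

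LOC477558, described as glutathione S-transferase theta-1-like, was listed at 0 in CLBL-1 8.0 against 34.8 in CLBL-1. Theta-class transferases conjugate glutathione to small halogenated and epoxide compounds. No fold can be given against a value of 0, and the log2 difference of -5.16 with 1 added is set by that constant: it would be -8.45 with 0.1 and -2.99 with 5. In all, 6 rows of the table were at 0 in CLBL-1 8.0. The other 5, including TMEM173, the gene of the DNA-sensing adaptor STING, and NLRC3, had 6.20 to 13.7 in CLBL-1, below the 34.8 of LOC477558.

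LOC477558 (gene ID 477558) lies on the minus strand of chromosome 26 from 28565304 to 28567536, a span of 2233 bases. Its gene ID was not found in the reference table, in which the other 3 members were. In that table another theta-class gene, GSTT2B, lies on chromosome 26 and has no row here, and reads of closely similar theta-class copies could be split by the counting, so the identity of this signal is uncertain. Of the 10 nearest listed rows 3 were lower, against 34.8% of all rows, and 50% were lower with 3 rows on each side. SUSD2, a membrane protein gene 201 kb away, was at 6.13 in CLBL-1 8.0 against 2.88 in CLBL-1. On the other side SLC2A11, a sugar transporter 84.6 kb away, was at 8.35 against 4.53. GGT5, which removes the glutamyl group from glutathione conjugates, lies 218 kb away and was at 24.4 against 12.1. The lowest log2 difference among these 10 rows was -1.50, for the selenoprotein gene SELENOM.

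**Figure D2:**
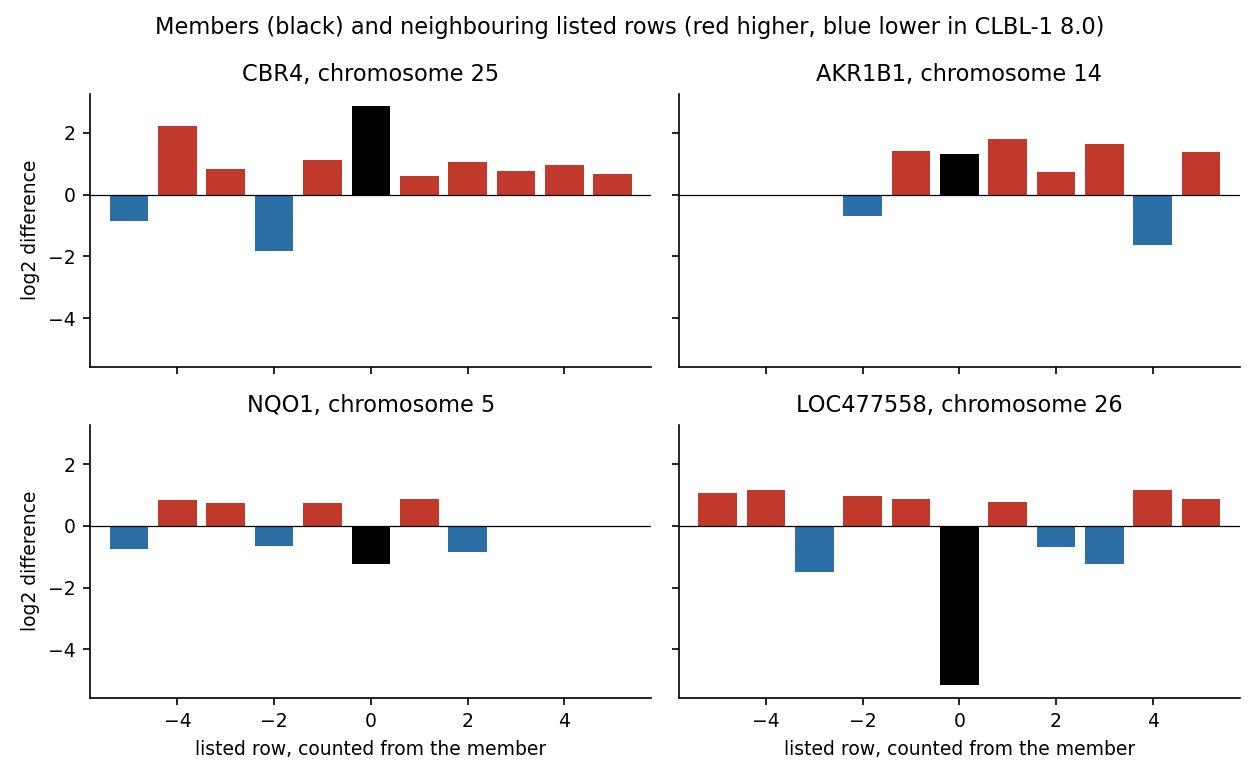
Log2 difference, log2((CLBL-1 8.0 + 1)/(CLBL-1 + 1)), of each member (black, place 0) and of up to 5 listed rows on each side in chromosome order (red higher, blue lower in CLBL-1 8.0). Of the neighbouring rows, 8 of 10 for CBR4, 5 of 7 for AKR1B1, 4 of 7 for NQO1 and 7 of 10 for LOC477558 are higher, against 65.2% of all rows.

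**Figure D3:**
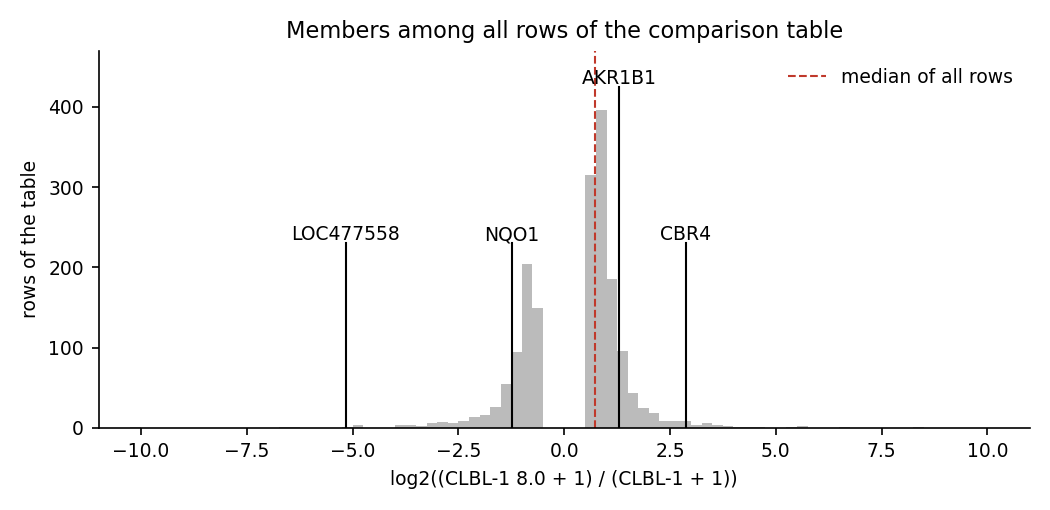
Number of rows (vertical axis) by log2 difference, log2((CLBL-1 8.0 + 1)/(CLBL-1 + 1)), over the 1729 rows, with the median of 0.73 dashed and the members marked. The gap around 0 reflects the authors' selection; CBR4 at 2.87 and LOC477558 at -5.16 lie in the tails, and AKR1B1 at 1.31 and NQO1 at -1.24 nearer the bulk.

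Rows with the pattern most like each member were found by the distance between log2(value + 1) of both lines, which rests on 2 samples and says nothing about function. For CBR4 they were OTUD1, a deubiquitinase, at 12.9 in CLBL-1 8.0 and 0.827 in CLBL-1 (distance 0.050), and TANC2, at 13.0 and 1.28 (distance 0.27). AKR1B1 was closest to JUND, an AP-1 subunit, at 316 in CLBL-1 8.0 and 104 in CLBL-1 (distance 0.22), and to the nuclease gene SND1, at 233 and 124 (distance 0.29). The rows closest to NQO1 were SRM, which encodes spermidine synthase, at 139.5 in CLBL-1 8.0 and 312 in CLBL-1 (distance 0.063), and SSB, the RNA-binding La protein, at 145 and 343 (distance 0.11). LOC477558 was nearest to PDE1A, a calmodulin-dependent phosphodiesterase, at 0.0706 in CLBL-1 8.0 and 31.3 in CLBL-1 (distance 0.18), and to WDR41 at 0.423 and 21.2 (distance 0.86).

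The wider families of the members were counted by gene lists. The share of all genes that had a row is not known here, so counts of listed genes are not read as few or many. Of 50 carbonyl reductases, aldo-keto reductases and related short-chain dehydrogenases, 7 were listed, and CBR4 and AKR1B1 were the higher ones. The other 5 were lower, against 34.8% of all rows, with a median log2 difference of -0.93, against 0.73 for all rows. DHRS7B, a peroxisomal reductase of ether lipid synthesis, was at 13.1 in CLBL-1 8.0 against 46.0 in CLBL-1. AKR1E2, another aldo-keto reductase, was at 7.17 against 14.5, and KDSR, a reductase of sphingolipid synthesis, was at 5.84 against 12.0. RDH13, a mitochondrial retinol dehydrogenase, was at 16.6 against 33.8, and BLVRB, a biliverdin and flavin reductase, was at 18.7 against 30.4. CBR1, CBR3, AKR1A1 and AKR1C3, which have the best described carbonyl activity on anthracyclines in humans, had no row.

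Among 30 quinone and single-electron reductases, 3 were listed. NQO1 was the lower one, while TXNRD2, the mitochondrial thioredoxin reductase, was at 24.8 in CLBL-1 8.0 against 13.3 in CLBL-1 and MTRR, a flavoprotein that reactivates methionine synthase, was at 85.4 against 52.1. Centred on the median of all rows, MTRR changed sign and 1 of the 3 was higher. NQO2, POR and XDH had no row, and CBR4, which also reduces quinones, was not on this list. Of 31 glutathione transferase genes only LOC477558 was listed, and a further row found by its description, LOC476006, described as glutathione S-transferase P-like, was at 46.6 in CLBL-1 8.0 against 74.3 in CLBL-1. The related GSTP1 had no row, and reads of these similar copies could be shared.

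Glutathione, thioredoxin and other antioxidant genes were represented by 7 of 53 list members. Of these, 5 were higher and 2 were lower, against 65.2% higher over all rows, and the median was 0.94, against 0.73 for all rows. The peroxide-reducing GPX1 was at 759 in CLBL-1 8.0 against 395 in CLBL-1, and TXNIP, which binds and inhibits thioredoxin, was at 116 against 58.5. HAGH, which hydrolyses glutathione thioesters of the glyoxalase pathway, was at 42.2 against 21.1, and MSRB1, a methionine sulfoxide reductase, was at 46.5 against 26.9; GGT5 was given above. HAGH and MSRB1 lie on chromosome 6, where 214 of 227 listed rows were higher, and all 10 of their nearest listed rows were higher in each case. On the lower side, HMOX1, the oxidant-induced heme oxygenase, was at 1.72 in CLBL-1 8.0 against 5.34 in CLBL-1, and BLVRA, which reduces its product biliverdin, was at 8.24 against 16.9.

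HMOX1 is, like NQO1, a textbook NRF2 target, and both were lower. The values of HMOX1 were low in both lines, 1.72 in CLBL-1 8.0 and 5.34 in CLBL-1. The latter is close to 5.01, the smallest value that any row had in its higher line, so little rests on HMOX1. The list of NRF2 regulators and NADPH-supplying enzymes had 2 of 31 genes listed. MAFK, a small Maf protein that pairs with NRF2, was at 50.9 in CLBL-1 8.0 against 21.2 in CLBL-1, and lies on chromosome 6 as well. PGD, which makes NADPH in the pentose phosphate pathway, was at 76.4 against 161. NFE2L2, which encodes NRF2, and KEAP1 had no row, nor did GCLC, GCLM, TXNRD1 and SRXN1, other common NRF2 targets.

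All 3 listed aldehyde and alcohol dehydrogenases, of 22, were lower in CLBL-1 8.0, against 34.8% of all rows, with a median of -1.33, against 0.73 for all rows. ALDH4A1, a mitochondrial enzyme of proline breakdown, was at 6.18 in CLBL-1 8.0 against 19.0 in CLBL-1. ALDH3A2, a fatty aldehyde dehydrogenase, was at 11.8 against 31.4, and ADH5, which clears formaldehyde through glutathione, was at 54.5 against 103. A pseudogene row described as a copy of ADH5, LOC474946, was named after its values were seen. It had 30.5 in CLBL-1 8.0 against 58.5 in CLBL-1. It may share reads with ADH5, which no value here measures. ALDH3A2 and DHRS7B lie near each other on chromosome 5, where 13 of the 14 listed rows from ALDH3A2 to DHRS7B were lower. NQO1 lies 37.3 Mb from DHRS7B. ADH5 lies on chromosome 32, where 25 of 31 listed rows and 7 of its 10 nearest listed rows were lower. ALDH4A1 lies on chromosome 2, where 22 of 56 listed rows and 4 of its 9 nearest were lower. The part of chromosome neighbourhood in these lower values was not tested.

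Genes that work with CBR4 and AKR1B1 were counted in the same way. In mitochondrial fatty acid and lipoic acid synthesis, 2 of 13 genes had a row, CBR4 and MECR, both with the higher value in CLBL-1 8.0. MECR, the enoyl reductase that completes the elongation cycle, was at 61.0 in CLBL-1 8.0 against 27.6 in CLBL-1. HSD17B8, the partner of CBR4, had no row. In the polyol pathway and fructose metabolism, AKR1B1 was the listed gene of 11. Of a list of 49 genes set up around anthracycline metabolism and transport, 6 had a row. CBR4 and AKR1B1 were higher and the other 4 genes lower, against 34.8% lower over all rows, and the median was -0.998. Beside CBR4, AKR1B1, NQO1 and HMOX1 these were FECH, which inserts iron into heme, at 23.4 in CLBL-1 8.0 against 40.8 in CLBL-1, and RAC2, a GTPase that also activates NADPH oxidase, at 0.141 against 105. HMOX1, FECH and RAC2 act on heme or activate NADPH oxidase, so the count of lower genes is not one of drug-handling enzymes and transporters.

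Over the 9 lists together, 26 of 265 genes were listed, 11 higher and 15 lower in CLBL-1 8.0, against 65.2% of all rows higher. Without the 4 members, 9 were higher and 13 lower, and the median was -0.84. Of the 11 higher genes, 8 had most of their nearest listed rows higher too, 3 were tied, and 0 had most of them lower. Of the 15 lower genes, 5 had most of their nearest listed rows lower, 9 had most of them higher and 1 was tied. The same counts were not made over all rows, most of which were higher, so they show nothing particular to these genes. The part of chromosome neighbourhood in these differences was not tested.

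**Figure D4:**
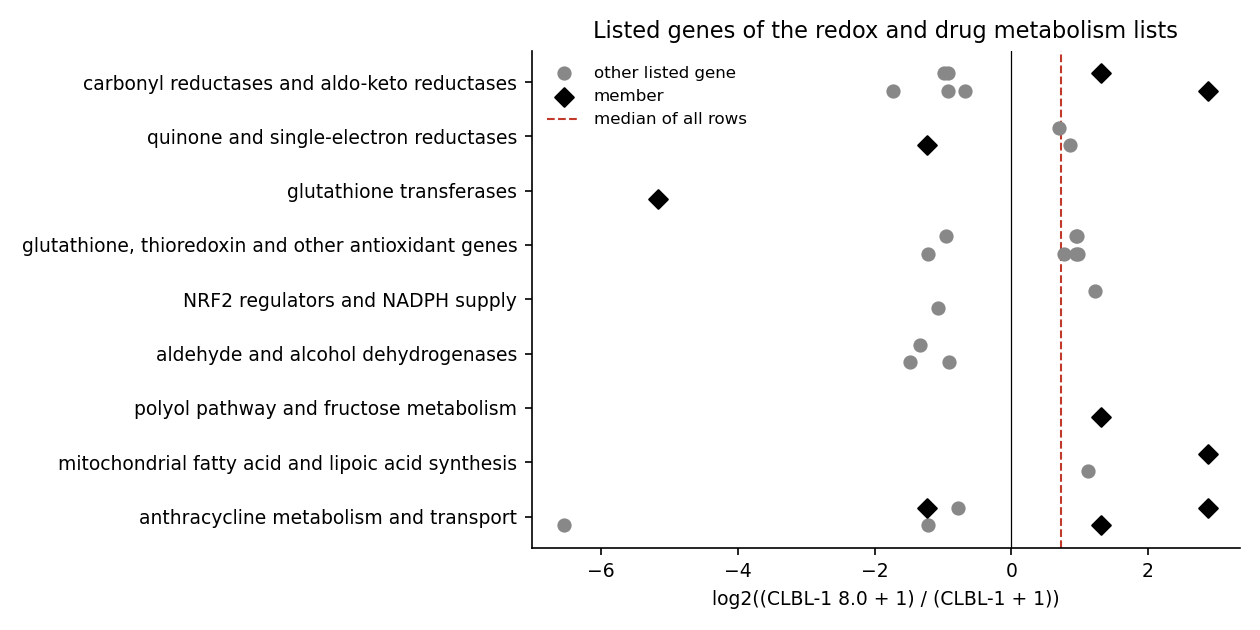
Log2 difference, log2((CLBL-1 8.0 + 1)/(CLBL-1 + 1)), of the listed genes of each of 9 gene lists (points are offset vertically for legibility; a gene in several lists is drawn in each), with the members as diamonds and the median of all rows, 0.73, dashed. All listed aldehyde and alcohol dehydrogenases and 5 of 7 listed carbonyl and aldo-keto reductases lie below 0, against 34.8% of all rows.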

How the data were processed

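Poly-A-selected RNA of each line was sequenced, 1 sample per line; the sources used here do not say whether the dishes of cells were pooled. HISAT2, StringTie and CanFam3.1 are named in the submitters' processing notes, without versions. The abundance signal per gene and line was deposited by the authors with no stated unit, and the column CLBL-8 was matched to CLBL-1 8.0 by its name. The log2 fold changes deposited by the authors equal log2 of CLBL-1 8.0 over CLBL-1 within 1.6e-14 in 1720 rows. Per the file headers, each ontology or pathway term has a p-value from the authors; the sources used here name neither its tool nor its background.

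Differences were computed as log2((CLBL-1 8.0 + 1)/(CLBL-1 + 1)) over all 1729 rows, with no filter, in Python 3.11.15 with pandas 2.3.3 and numpy 2.4.6. No test between the lines was made. Functions were tested on simulated data. Of 1707 gene IDs, 1605 were found in the UU_Cfam_GSD_1.0 table, used for names and neighbours. No sequences were used.

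The named genes are the 4 members, all listed genes of 9 lists, rows described as such enzymes, the nearest neighbour with a symbol on each side and the 2 rows most like each member; further neighbours and pseudogenes were named after their values were seen. Members and lists were chosen with earlier results of these data known. Alternatives were constants of 0, 0.1 and 5, a minimum mean of 5, and 3 or 10 neighbours on each side. Upper-quartile scaling and centring on the median, both over the listed rows, were also tried.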

Additional observations from a re-analysis of the deposited data

How the results depend on the processing

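No member changed direction under any alternative tried, and of 84 values recomputed 67 stayed within 1.5-fold of the reported one. Much of this was fixed in advance, because an added constant cannot change a direction. Upper-quartile scaling, a factor of 1.25, could turn no row either, since rows above 0 in both lines differed at least 1.59-fold. Only centring could have reversed a member. The differences of CBR4 were 3.71 and 1.60 with constants of 0.1 and 5, 3.85 with none, and 2.14 centred on the median of all rows. Centring gave 0.57 for AKR1B1, -1.97 for NQO1 and -5.89 for LOC477558, and constants of 0.1 and 5 gave -8.45 and -2.99 for LOC477558. Rows at least 2-fold higher and lower numbered 197 and 154 with a constant of 5, 216 and 533 with upper-quartile scaling (a factor of 1.25, or 0.32 on the log2 scale), and 91 and 602 when centred, against 416 and 249. The 602 are all the lower rows. Upper-quartile scaling took AKR1B1 to 0.99, just under 2-fold. When centred, 1 of the 3 listed quinone and single-electron reductases was higher. With 3 neighbours on each side, 50% of those of LOC477558 were lower, against 30.0% with 5. No paired analysis was possible because each line has 1 sample, and no sample could be left out. Among the members, the unknown depth limits most the low values of CBR4 in CLBL-1 and of LOC477558 in CLBL-1 8.0. It also limits other low values, such as those of HMOX1. For the gene lists only the number of higher genes was recomputed, so lower genes lost with a minimum mean of 5 do not show.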

Other observations

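Heme metabolism, which meets the reductases at BLVRA and BLVRB, had rows in both directions. The authors' deposited table lists the KEGG term porphyrin and chlorophyll metabolism with 9 genes and a p-value of 0.00465, and 4 of the 9 were higher and 5 lower in CLBL-1 8.0, against 65.2% higher over all rows. HMOX1, BLVRA and BLVRB, the listed genes of heme breakdown, were all lower, as given above, as were FECH and HCCS, which attaches heme to cytochromes, at 25.5 in CLBL-1 8.0 against 46.7 in CLBL-1. ALAS1, which starts heme synthesis, was higher, at 61.9 against 37.9, and so was PPOX, a late enzyme of that pathway, at 23.2 against 12.2. The other higher genes were the lysosomal glucuronidase GUSB, at 72.3 in CLBL-1 8.0 against 29.5 in CLBL-1, and EARS2, a mitochondrial tRNA synthetase, at 14.0 against 7.02.

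Complex I of the respiratory chain also reduces quinones, and 6 rows described as its subunits or assembly factors were listed. Of these, 4 were higher and 2 lower in CLBL-1 8.0, close to the 65.2% higher over all rows. Their median log2 difference was 0.78, against 0.73 for all rows. NDUFA1 was at 246 in CLBL-1 8.0 against 85.9 in CLBL-1, and NDUFB10 was at 495 against 266. NDUFB10 lies on chromosome 6, where 214 of 227 listed rows were higher. The NDUFA1 row spans only 60181098 to 60181510 on chromosome 17, and whether it is the gene or a copy was not examined. NDUFAF4 was at 109 against 206 and NDUFS4 was at 109 against 179. These rows were searched for by their descriptions after the data had been examined.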
